A study of Mus musculus with 12 samples.

Results

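Il2ra, Il15ra, Il2rb, Il2rg, Il7r, Il4ra and Il21r encode chains of the receptors for IL-2, IL-15, IL-7, IL-4 and IL-21. Open chromatin around these 7 genes was compared in natural killer (NK) cells of mouse spleen. The genes were taken as a receptor family and not by a measured value, but earlier results of these data were known when they were chosen. Every peak interval of 12 ATAC-seq peak lists that lay within 50 kb of a gene body (mm10) was taken. Merged over the libraries, the intervals of lists cut to equal length made 70 regions near these genes, of 51700 in all. The 60 that held an interval in at least 2 libraries could be tested, of 45082 in all, and the other 10 had an interval in 1 library only. A further 35 merged stretches held only weaker deposited intervals, so that all deposited intervals together made 105.

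The receptors form 1 family. The gamma chain, Il2rg, is shared by the receptors for IL-2, IL-4, IL-7, IL-15 and IL-21, and pairs with the beta chain Il2rb for IL-2 and IL-15 and with Il7r, Il4ra or Il21r for the other cytokines. Il2ra (CD25) raises the affinity of a cell for IL-2, and Il15ra holds IL-15 and can present it to neighbouring cells. They signal through JAK kinases and STAT factors. IL-15 maintains resting NK cells, and activated NK cells are known to gain CD25.

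The groups were KO cells stimulated with IL-12/18, WT cells stimulated with IL-12/18, KO control cells and WT control cells, with 3 libraries each. KO cells are named Reg-1ΔNK in the study's design text, for loss in NK cells of Regnase-1, an RNA-degrading enzyme encoded by Zc3h12a. WT cells are named Reg-1fl/fl there, so the WT label stands for the floxed allele. The driver of the deletion, the age of the mice and the dose and time of the cytokines are not stated in the labels. Nor do they say that the 3 libraries of a group came from separate animals, so every p-value rests on a spread between libraries that may be technical. ATAC-seq marks DNA that a transposase can reach. In a bulk library, fewer cells with an open site and less opening per cell cannot be told apart.

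Peak lists give no read counts, so the total depth is unknown. The lists held 35110 to 63128 distinct intervals, and each was cut to its 35110 strongest by the deposited −log10 q. A region's position is given as the share of that list down to its strongest interval (top 4% is high, top 90% is low). Differences are in log2(N/rank), with N the list length: a difference of 1 on that scale means a rank number divided by 2, and a region with no interval in the equal list scores 0. The library KO stimulated 1 had the shortest list, cut at a −log10 q of 1.31, against 4.60 to 27.05 in the others. All 8 NK cell genes examined, Ncr1 and Eomes among them, held a deposited interval in 12 of 12 libraries. Of the 25 genes of other cell types, Cd8a, Lyz2, Gata1 and Alas2 had none in any library, Ms4a1 and Adgre1 had one in 1 library each, and 15 genes, Cd3e and Cd79a among them, had one in at least 11 of 12. Their part in the results below was not tested. Zc3h12a held intervals in 12 of 12 libraries. At its lower end by coordinate, a weak interval outside the equal lists was deposited in 0 of 6 KO and 6 of 6 WT libraries. The labels do not give the deleted stretch, so whether this interval lies in it is not known and the genotype is not checked by it.

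The promoters are shown for 4 genes whose start sites take part in the results: Il2ra, whose start rose in the lists, Il15ra, whose region widened, Il7r, whose start reached an equal list in 1 library only, and Il21r, whose start was lower in stimulated than in control KO cells. Each window runs from 250 bases before the start site to 50 after it, 5′ to 3′, in RefSeq's GRCm38.p6 (mm10), and 6 of the 7 genes have one in the table used. Positions are counted from 0 at the start site. Capitals mark matches on either strand to the NF-kB motif, to TTCNNNGAA (STAT), TGANTCA (AP-1), TGTGGT (RUNX), GGTGTNA (T-box), CCGGAAGT or AGGAAGT (both ETS).
Il2ra, chr2:11642542-11642841, plus strand: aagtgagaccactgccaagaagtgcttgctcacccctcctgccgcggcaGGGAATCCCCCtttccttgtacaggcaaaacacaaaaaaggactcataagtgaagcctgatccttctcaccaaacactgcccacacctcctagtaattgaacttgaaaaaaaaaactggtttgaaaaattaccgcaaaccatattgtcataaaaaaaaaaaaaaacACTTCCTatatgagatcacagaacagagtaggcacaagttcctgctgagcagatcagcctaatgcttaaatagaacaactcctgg
Il15ra, second start site, chr2:11705462-11705761, plus strand: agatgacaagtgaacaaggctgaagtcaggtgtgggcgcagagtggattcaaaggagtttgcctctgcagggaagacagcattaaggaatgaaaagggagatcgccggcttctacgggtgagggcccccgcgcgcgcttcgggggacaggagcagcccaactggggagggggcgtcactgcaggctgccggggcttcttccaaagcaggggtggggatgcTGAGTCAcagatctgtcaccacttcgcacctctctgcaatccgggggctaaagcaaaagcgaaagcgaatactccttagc
Il7r, chr15:9529827-9530126, minus strand: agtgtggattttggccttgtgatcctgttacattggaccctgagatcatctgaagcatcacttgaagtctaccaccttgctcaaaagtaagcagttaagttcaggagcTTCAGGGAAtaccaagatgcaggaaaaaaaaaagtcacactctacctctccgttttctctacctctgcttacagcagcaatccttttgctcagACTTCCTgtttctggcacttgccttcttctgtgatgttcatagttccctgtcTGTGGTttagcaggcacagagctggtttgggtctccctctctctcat
Il21r, chr7:125603179-125603478, plus strand: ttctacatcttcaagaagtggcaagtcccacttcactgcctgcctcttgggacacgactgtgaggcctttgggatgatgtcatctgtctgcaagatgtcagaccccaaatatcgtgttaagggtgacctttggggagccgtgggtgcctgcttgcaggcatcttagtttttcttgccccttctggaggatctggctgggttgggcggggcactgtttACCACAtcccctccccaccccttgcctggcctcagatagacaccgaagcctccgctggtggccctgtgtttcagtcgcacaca

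In the Il2ra window, NF-kB matches overlap at -201 and -200 and an AGGAAGT match begins at -35. The Il15ra window holds an AP-1 match at -30. The Il7r window holds a STAT match at -142, an AGGAAGT match at -49 and a RUNX match at 3. The Il21r window holds a RUNX match at -33. Among 32851 promoter windows of the same length, 8.46% hold the NF-kB motif, 8.3% the STAT, 7.81% the AP-1, 16.8% the RUNX, 10.2% the T-box, 3.89% the longer ETS and 9.35% the shorter ETS motif. The matches describe letters only.

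Stimulation moved many of these regions up in the lists. In KO cells 16 of the 60 tested regions were higher in stimulated than in control libraries (limma, Benjamini-Hochberg adjusted p under 0.05), where 14.6% of all tested regions were, and 7 were lower, where 16.6% of all were. With the replicate number added to the fit as a block, 18 were higher and 8 lower in KO cells. The block added a region near Rac2, given below, and a region of Il2rb (0.21 ± 0.07, limma, adjusted p = 0.0439). It also added, as lower, the Il2ra region farthest upstream (-0.67 ± 0.22, limma, adjusted p = 0.0393). In WT cells 22 were higher, where 18% of all were, and 8 were lower, where 18.9% of all were. With the block 22 were higher and 10 lower in WT cells. It added as lower a region of Il2rb (-0.70 ± 0.22, limma, adjusted p = 0.0293) and one of Il21r (-0.51 ± 0.17, limma, adjusted p = 0.0422). The median difference over the 60 was 0.10 in KO and 0.07 in WT cells, and over all tested regions it was -0.03 in KO and -0.04 in WT cells. Regions found in 1 group only entered the 60 through that group, so these counts describe the tested regions and not all intervals near the genes. The higher regions were unevenly spread over the genes. Il2ra had 6 higher regions of 10 in KO and 6 in WT cells, Il7r had 4 of 5 in KO and 3 in WT cells, and Il4ra had 3 of 11 in KO and 6 in WT cells. Il2rg had none of 4, and Il21r had none of 7 in KO and 1 in WT cells. Of the 60, 25 lay nearer to another protein-coding gene, 13 of them around Il2rb, which had 17 tested regions.

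**Figure D1:**
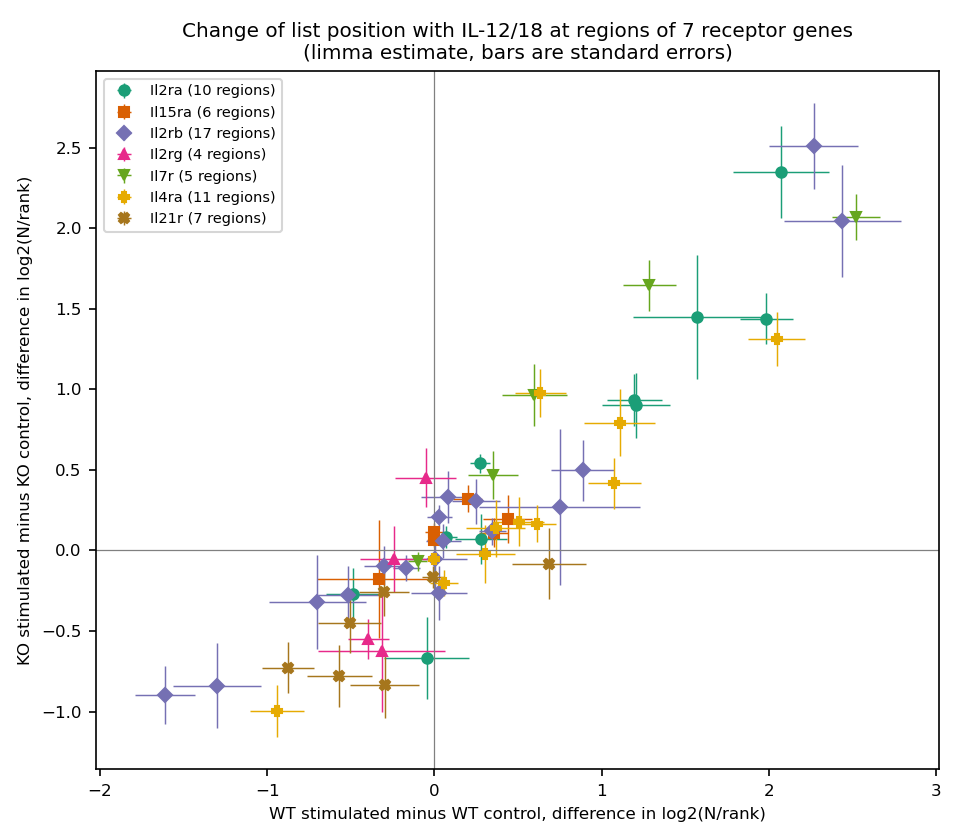
Each point is 1 of the 60 tested regions, with its stimulated minus control difference in log2(N/rank) in KO cells on the vertical axis and in WT cells on the horizontal axis. Bars are limma standard errors, and marker shape and colour name the gene. Regions of Il2ra, Il2rb, Il4ra and Il7r reach differences above 1 in both genotypes, while those of Il21r lie mostly below 0.

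Il2ra, the IL-2 receptor alpha chain, had its largest difference in KO cells at its start site (chromosome 2, 11640854 to 11644002). In KO stimulated libraries the region stood at the top 3.83, 10.1 and 7.61% of the list, and in WT stimulated libraries at 8.02, 11.7 and 10.2%. In KO control libraries it stood at 34.1, 33.3 and 34.1%, and in WT control libraries at 42.9, 44.6 and 37.2%. All 6 stimulated libraries lay above all 6 controls, and the KO and WT stimulated ranges overlapped. The difference was 2.35 ± 0.29 (SE) in KO cells (limma, adjusted p = 8.91e-05) and 2.07 ± 0.29 in WT cells (limma, adjusted p = 0.000137). The strongest summit lay 148, 98 and 116 bp before the start site in KO stimulated libraries, 126, 109 and 105 bp before it in WT stimulated, 70, 96 and 73 bp before it in KO control and 120, 71 and 72 bp before it in WT control libraries. Every one of these positions lies between the NF-kB and AGGAAGT matches of the window printed above. The deposited interval was 2370 to 3066 bp wide in KO stimulated and 2605 to 2939 bp in WT stimulated libraries, against 1708 to 1892 bp in KO control and 1653 to 1853 bp in WT control libraries. Relative to each library's median width this was wider by 0.70 ± 0.12 on the log2 scale in KO cells (limma, adjusted p = 0.00577) and by 0.62 ± 0.12 in WT cells (limma, adjusted p = 0.0105). Without WT stimulated 1 the WT width difference was 0.56 (limma, adjusted p = 0.0519). With lists of 17555 intervals the width call was lost in both genotypes.

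Upstream of Il2ra, a region 25273 bp before the start site (11616302 to 11617519, nearer to Rbm17) was absent from all 6 equal control lists. It stood at 38.4, 45.3 and 28.8% in KO stimulated and at 21.6, 26.1 and 28.7% in WT stimulated libraries. The difference was 1.44 ± 0.16 in KO cells (limma, adjusted p = 4.65e-05) and 1.98 ± 0.16 in WT cells (limma, adjusted p = 3.58e-06). Weaker intervals were deposited there in 2 of 3 KO control and 0 of 3 WT control libraries. A region 18530 bp before the start rose by 0.90 ± 0.20 in KO cells (limma, adjusted p = 0.00483) and by 1.204 ± 0.20 in WT cells (limma, adjusted p = 0.000533).

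Inside Il2ra, the regions 1255 bp and 11666 bp after the start site also rose in both genotypes. The first rose by 0.93 ± 0.16 in KO and 1.196 ± 0.16 in WT cells (limma, adjusted p = 0.000968 in KO and 0.000117 in WT). The second rose by 1.45 ± 0.38 in KO and 1.57 ± 0.38 in WT cells (limma, adjusted p = 0.0126 in KO and 0.00651 in WT). Between them, the region beginning 7042 bp after the start passed in position in neither genotype. It stood at 13.4 to 15.6% in KO stimulated and 11.8 to 14.8% in WT stimulated libraries against 15.0 to 16.3% in KO control and 14.2 to 18.3% in WT control libraries. It was wider by 0.64 ± 0.11 in KO and 0.53 ± 0.11 in WT cells (limma, adjusted p = 0.00461 in KO and 0.0121 in WT, and 0.0544 in WT without WT stimulated 1). The KO width call was lost with lists of 17555 intervals, with all deposited intervals and with width in bp, with a difference down to 0.14. Not every Il2ra region gained. One 19536 bp after the start fell by 0.49 ± 0.16 in WT cells (limma, adjusted p = 0.0341) and had a difference of -0.27 ± 0.16 in KO cells (limma, adjusted p = 0.229). The WT call did not hold without any of 5 WT libraries in turn, with -0.42 and an adjusted p of 0.123 without WT stimulated 2.

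The stretch from the Il2ra start site to the Il15ra gene start filled with intervals, some of them too weak for the equal lists. Il2ra itself takes up its first 50402 bp, so the regions inside Il2ra given above are part of it. In all, the stretch is 62381 bp long. Deposited intervals of any strength covered 37.4, 22.7 and 50.6% of it in KO stimulated and 56.6, 47 and 61.8% in WT stimulated libraries, against 11.2, 11.2 and 12.5% in KO control and 9.81, 12.1 and 12.3% in WT control libraries. The stimulated and control libraries did not overlap. Coverage by deposited intervals moves with how many intervals a list holds, and KO stimulated 1 had the shortest list. In lists of equal length the covered bases were 23340, 9090 and 18781 in KO stimulated and 23760, 13521 and 23953 in WT stimulated libraries, against 6306, 6999 and 7428 in KO control and 6120, 7025 and 6893 in WT control libraries. This stretch was chosen after its values were seen, and it carries no test. Within it, the region across Il2ra's far end (11688450 to 11700954) held an interval in all 6 stimulated and none of the 6 control equal lists. It stood at 66.0, 73.4 and 66.9% in KO stimulated and 87.1, 78.7 and 82.5% in WT stimulated libraries, and so was higher in every KO than in every WT stimulated library. The KO minus WT difference was 0.27 ± 0.06 (limma, adjusted p = 0.0218), and it missed the threshold without WT stimulated 1 (0.23, adjusted p = 0.0797) and without WT stimulated 3 (0.27, adjusted p = 0.0576).

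**Figure D2:**
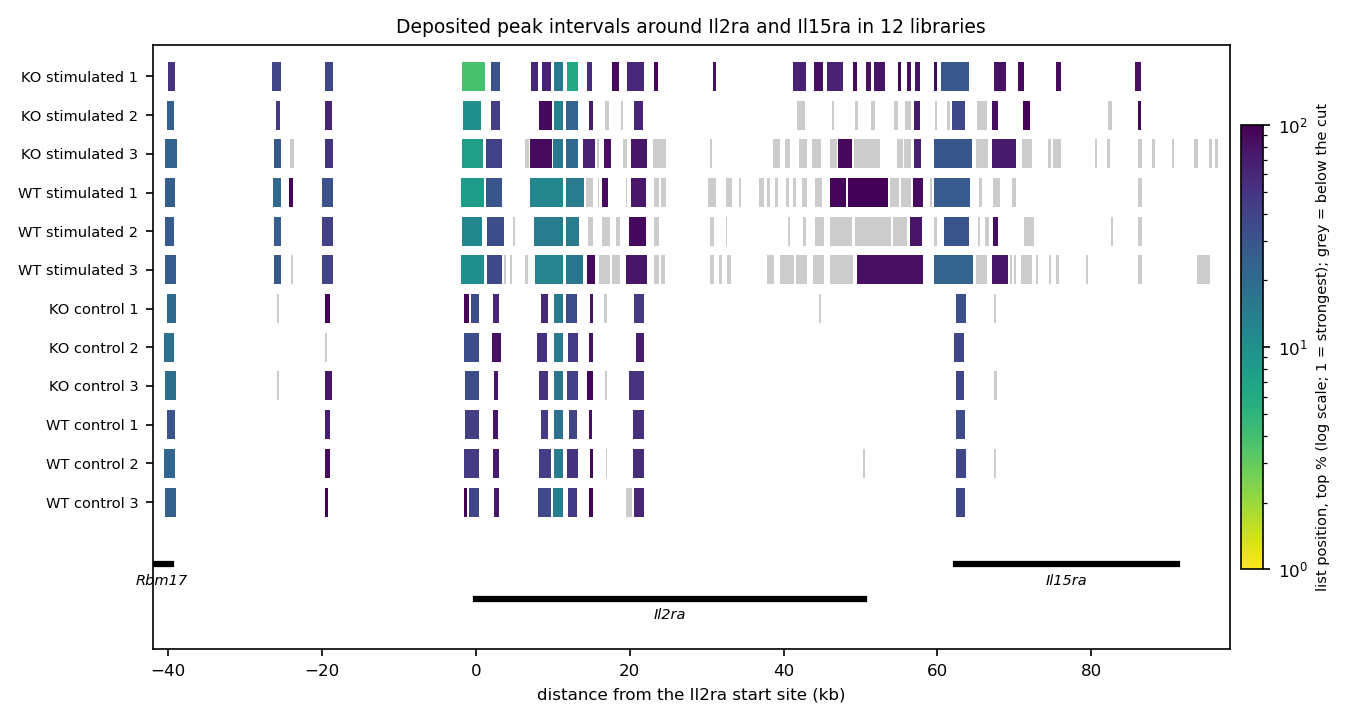
Bars are deposited peak intervals of 12 libraries, with the distance from the Il2ra start site in kb on the horizontal axis and 1 library per row. Colour gives the position in the list on a log scale, and grey marks intervals below the strongest 35110. The 6 stimulated libraries show a brighter and wider bar at the Il2ra start. They also show many intervals from inside Il2ra to Il15ra that the 6 control libraries lack.

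Il15ra, the IL-15 receptor alpha chain, widened at its start rather than moving far up the list. The start-site region (chromosome 2, 11702286 to 11707375) held 4111, 1665 and 4821 bp of interval in KO stimulated and 4653, 3307 and 5090 bp in WT stimulated libraries. In KO control libraries it held 1245, 1313 and 1090 bp, and in WT control libraries 1113, 1314 and 1168 bp. Every stimulated library exceeded every control. The width difference was 1.53 ± 0.28 on the log2 scale in KO cells (limma, adjusted p = 0.00685) and 1.78 ± 0.28 in WT cells (limma, adjusted p = 0.00262). The number of deposited summits was 3 to 7 in stimulated and 1 in every control library. In position the region differed by 0.19 ± 0.15 in KO cells (limma, adjusted p = 0.354) and by 0.44 ± 0.15 in WT cells (limma, adjusted p = 0.0369). The WT call in position was lost without any of 5 WT libraries in turn, with an adjusted p of up to 0.14 without WT stimulated 3. The table lists a second Il15ra start site 419 bp after the first, the one printed above. In 10 of 12 libraries the strongest summit lay within 22 bp of it, and in KO stimulated 1 and WT control 1 it lay 149 and 121 bp before it.

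Further into Il15ra, a region 4198 bp after the first start held intervals in 3 of 3 KO stimulated, 2 of 3 WT stimulated and 0 of 6 control equal lists, and rose by 0.32 ± 0.09 in KO cells (limma, adjusted p = 0.0135). Its WT difference was 0.20 ± 0.09 (limma, adjusted p = 0.0901). A region inside Fbh1, 13437 bp beyond the gene's far end, rose by 0.35 ± 0.09 in WT cells (limma, adjusted p = 0.00687) and had a difference of 0.11 ± 0.09 in KO cells (limma, adjusted p = 0.36).

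Il2rb, the beta chain for IL-2 and IL-15, held some of the strongest regions and exchanged 1 summit for another at its upper end. The strand of the gene is not in the tables used, so its ends are called lower and upper by coordinate. The upper-end region (chromosome 15, 78509414 to 78517127) stood at 1.35, 3.37 and 3.77% in KO stimulated and 1.501, 1.28 and 0.923% in WT stimulated libraries, against 10.98, 9.45 and 11.7% in KO control and 6.74, 5.84 and 7.19% in WT control libraries. All stimulated libraries lay above all controls. The difference was 2.05 ± 0.35 in KO cells (limma, adjusted p = 0.000878) and 2.44 ± 0.35 in WT cells (limma, adjusted p = 0.000178). This is the value of the strongest interval, which covered several summits.

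The strongest summit was not the same one in stimulated and control cells. Counted from the gene's upper end, with negative values inside the gene, it lay at -919, -1129 and -1137 bp in KO stimulated and at -1071, -1071 and -1084 bp in WT stimulated libraries. It lay at 557, 568 and 576 bp in KO control libraries and at -927, 553 and 577 bp in WT control libraries. Thus 6 of 6 stimulated libraries had it inside the gene and 5 of 6 controls just beyond the end. Windows of 250 bp on each side of every summit, ranked among the 43637 strongest windows of each library, separated the summits. The window inside the gene (78510234 to 78511089) stood at 1.37, 3.24 and 3.68% in KO stimulated and 1.69, 1.45 and 1.13% in WT stimulated libraries, against 14.7, 12.8 and 13.5% in KO control and 6.06, 11.1 and 9.28% in WT control libraries. It rose by 2.42 ± 0.35 in KO cells (limma, adjusted p = 0.000317) and 2.61 ± 0.35 in WT cells (limma, adjusted p = 0.000123). The window across and beyond the end (78511325 to 78513740) stood at 36.9, 20.6 and 38.4% in KO stimulated and 41.6, 34.8 and 29.7% in WT stimulated libraries, against 9.998, 8.56 and 10.6% in KO control and 7.11, 5.33 and 6.53% in WT control libraries. It fell by 1.67 ± 0.24 in KO cells (limma, adjusted p = 0.000287) and fell by 2.48 ± 0.24 in WT cells (limma, adjusted p = 1.17e-05). The groups of stimulated and control libraries did not overlap in either window, and the 2 neighbouring windows changed in opposite directions.

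**Figure D3:**
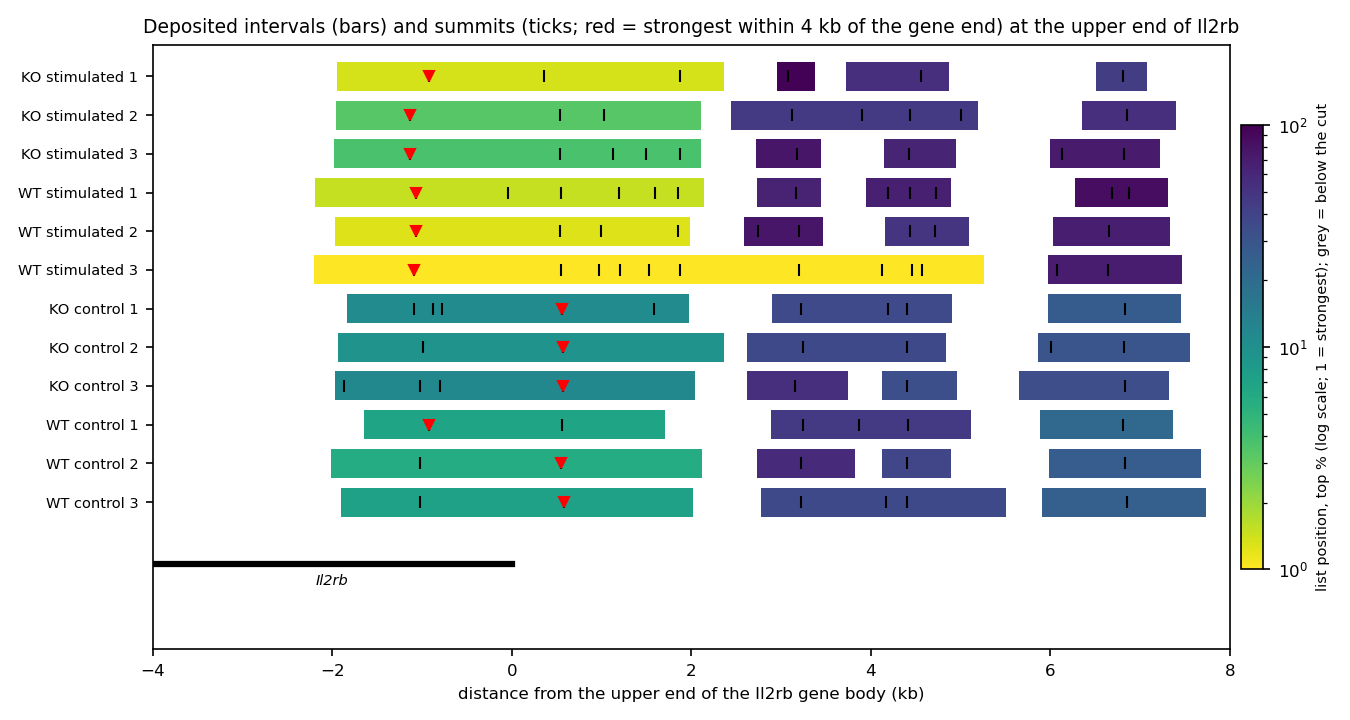
Bars are deposited intervals of 12 libraries around the upper end of Il2rb, black ticks their summits and red triangles the strongest summit within 4 kb of the end, with the distance from the end in kb on the horizontal axis and colour for the position in the list. The triangle sits inside the gene in all 6 stimulated libraries and in WT control 1, and beyond the end in the other 5 control libraries.

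Other Il2rb regions moved in both directions. Beyond the upper end, 5649 bp from the gene, a region fell by 0.90 ± 0.18 in KO cells (limma, adjusted p = 0.00243) and fell by 1.61 ± 0.18 in WT cells (limma, adjusted p = 2.84e-05). It stood at 44.1 to 71.3% in KO stimulated and 68.2 to 85.2% in WT stimulated libraries, against 26.5 to 33.5% in KO control and 21.6 to 26.1% in WT control libraries. Inside the gene, a summit window (78493466 to 78494003) stood at 7.09, 2.64 and 1.87% in KO stimulated and 2.303, 2.19 and 1.87% in WT stimulated libraries, against 8.6, 9.27 and 8.03% in KO control and 10.7, 8.71 and 9.37% in WT control libraries. It rose by 1.40 ± 0.38 in KO cells (limma, adjusted p = 0.0143) and 2.18 ± 0.38 in WT cells (limma, adjusted p = 0.000697). The merged region around it, 78490642 to 78496740, differed by only 0.27 ± 0.48 in KO and 0.75 ± 0.48 in WT cells and passed in neither (limma, adjusted p = 0.718 in KO and 0.256 in WT). The region at the gene's lower end was wider by 0.63 ± 0.12 in KO cells (limma, adjusted p = 0.0103), with 0.16 ± 0.12 in WT cells (limma, adjusted p = 0.542). This KO call was lost with lists of 17555 intervals, with all deposited intervals and with width in bp, with a difference down to 0.06.

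Below the gene, inside Tmprss6 and 27448 bp from Il2rb, a region (78447266 to 78451808) reached 1.09, 1.79 and 2.03% in KO stimulated and 2.00, 1.47 and 1.43% in WT stimulated libraries. It stood at 10.03, 7.37 and 9.91% in KO control and 8.28, 6.98 and 8.08% in WT control libraries. Stimulated and control libraries did not overlap, and the difference was 2.51 ± 0.27 in KO cells (limma, adjusted p = 3.65e-05) and 2.27 ± 0.27 in WT cells (limma, adjusted p = 4.35e-05). Its neighbour, also in Tmprss6 and 20576 bp from Il2rb, fell by 0.84 ± 0.26 in KO cells (limma, adjusted p = 0.0301) and fell by 1.301 ± 0.26 in WT cells (limma, adjusted p = 0.00202). Leaving out KO control 1 moved its KO value to -0.68 (adjusted p = 0.112), and leaving out KO control 3, KO stimulated 2 or KO stimulated 3 also ended that call. A further 3 regions, around other genes, passed in WT and not in KO cells: one inside Kctd17 with 0.35 ± 0.08 (limma, adjusted p = 0.00575), one near Rac2 with 0.89 ± 0.19 (limma, adjusted p = 0.00265) and one inside C1qtnf6 with -0.51 ± 0.18 (limma, adjusted p = 0.0406). Their KO differences were 0.12 ± 0.08, 0.50 ± 0.19 and -0.28 ± 0.18 (limma, adjusted p = 0.305, 0.0626 and 0.267), and no test showed the genotypes to differ there. With the replicate block the Rac2 region passed in KO cells too (limma, adjusted p = 0.0253). The C1qtnf6 call was lost without any of 9 libraries in turn, with an adjusted p of up to 0.133 without WT control 1.

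Over the summit windows near all 7 genes, 24 of 77 were higher in KO stimulated than in KO control libraries, where 14.2% of all windows were, and 11 were lower, where 16% of all were. In WT cells 27 were higher, where 17.1% of all were, and 14 were lower, where 20.2% of all were. Il2rb held 29 of the 77 windows, with 8 higher and 5 lower in KO and 7 higher and 6 lower in WT cells. The lower windows were 14.3% of the 77 in KO and 18.2% in WT cells, near the shares of all windows. One of them lay inside Il2ra (11651379 to 11652568). It fell by 0.62 ± 0.16 in KO and fell by 0.87 ± 0.16 in WT cells (limma, adjusted p = 0.0106 in KO and 0.000999 in WT).

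Il2rg, the shared gamma chain, did not pass the test at its start site in either genotype. The region (chromosome X, 101267532 to 101269073) stood at 23.8, 36.8 and 31.0% in KO stimulated and 38.7, 28.1 and 41.8% in WT stimulated libraries, against 39.4, 40.2 and 43.8% in KO control and 32.7, 34.2 and 36.5% in WT control libraries. The KO stimulated libraries lay above the KO controls, and the WT groups overlapped. The difference was 0.45 ± 0.18 in KO cells (limma, adjusted p = 0.0783) and -0.05 ± 0.18 in WT cells (limma, adjusted p = 0.879). Of its 4 regions 1 passed, inside Foxo4 and 8892 bp from Il2rg, and fell by 0.55 ± 0.12 in KO cells (limma, adjusted p = 0.00486) and fell by 0.40 ± 0.12 in WT cells (limma, adjusted p = 0.024). The WT call was lost without WT control 2, WT stimulated 1 or WT stimulated 3, with an adjusted p of up to 0.0975. A weak interval 3309 bp from the gene (101260366 to 101261076) was deposited in 3 of 3 WT control libraries and in 0 of the other 9.

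**Figure D4:**
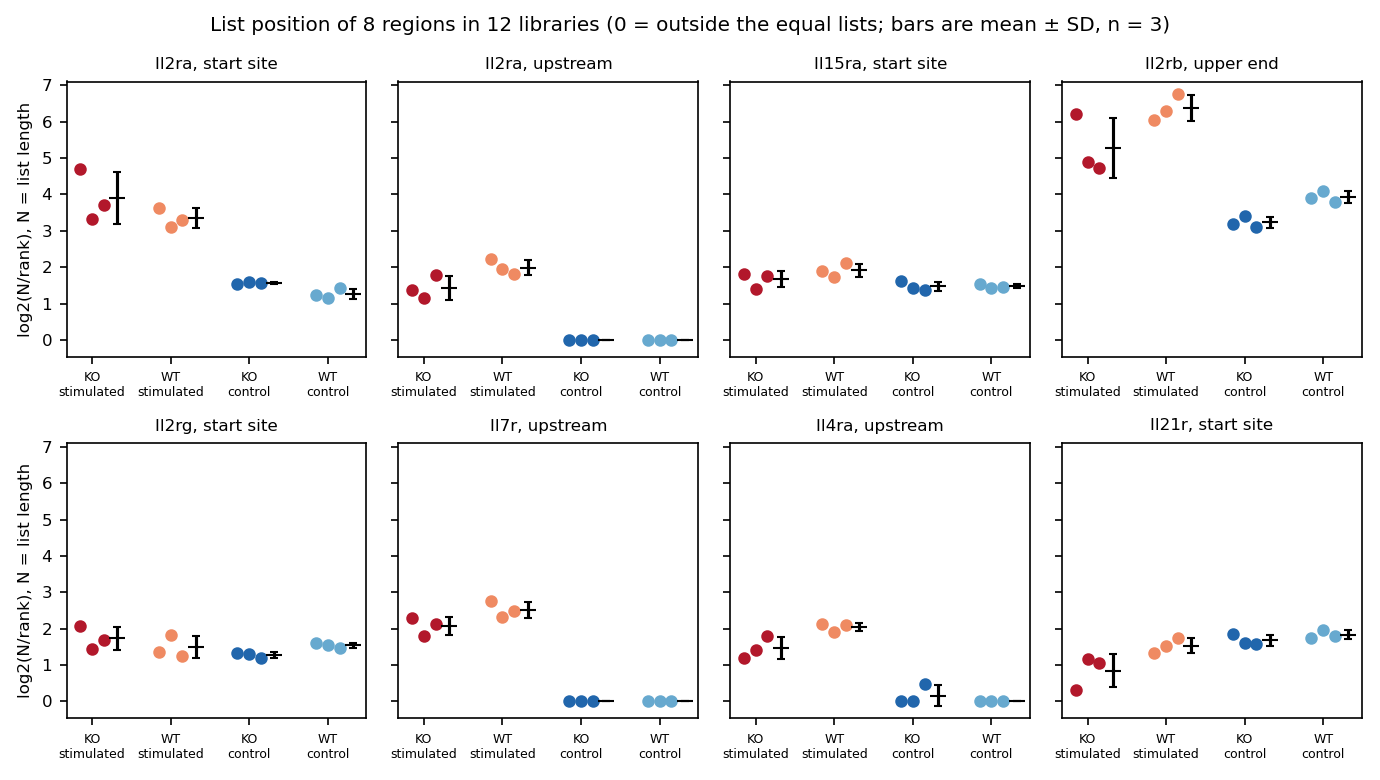
Points are single libraries, with log2(N/rank) on the vertical axis, where N is the list length and 0 means no interval in the equal list, and the 4 groups on the horizontal axis. Bars are the mean and SD of 3 libraries. The stimulated groups lie above the controls at the Il2ra, Il2rb, Il7r and Il4ra regions shown, while Il2rg and Il15ra overlap or differ little and Il21r is lowest in KO stimulated libraries.

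The gene of the IL-7 receptor alpha chain, Il7r, had rising regions on both sides of a weak start site. A region at -24485 bp from the start (chromosome 15, 9554361 to 9556823, nearer to Spef2) was absent from all 6 equal control lists. It stood at 20.6, 28.5 and 23.0% in KO stimulated and at 14.8, 19.9 and 17.9% in WT stimulated libraries. Weaker intervals were deposited there in 1 of 3 KO control and 1 of 3 WT control libraries. The difference was 2.07 ± 0.14 in KO cells (limma, adjusted p = 4.34e-06) and 2.52 ± 0.14 in WT cells (limma, adjusted p = 8.56e-07). With no interval in any equal control list the controls were set to 0 and had no spread. The region entered the 60 through the stimulated libraries alone, so its SE and p-value partly follow from that filter and floor. The same holds for the other regions given below and above as absent from all control lists. The floor also applies wherever the equal control lists of 1 genotype held no interval. In WT cells these include the Fbh1 region, the Kctd17 region and the rising region inside Il4ra. The regions counted by presence below, 7 in KO and 11 in WT cells, are all of this kind. A region inside the gene, 1033 bp after the start (9527287 to 9528843), stood at 24.02, 39.1 and 34.7% in KO stimulated and 39.4, 38.9 and 38.2% in WT stimulated libraries. Of the 6 equal control lists only WT control 1 held it, at 84.3%. Intervals of any strength were deposited there in 2 of 3 KO control and 2 of 3 WT control libraries. The region rose by 1.65 ± 0.16 in KO cells (limma, adjusted p = 2e-05) and 1.28 ± 0.16 in WT cells (limma, adjusted p = 6e-05).

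Both other rising Il7r regions were low in the stimulated lists and in no equal control list. The one at -39596 bp from the start, nearer to Spef2, rose by 0.97 ± 0.19 in KO cells (limma, adjusted p = 0.00253) and by 0.60 ± 0.19 in WT cells (limma, adjusted p = 0.0301), the WT call being lost without any of 5 WT libraries in turn (adjusted p up to 0.112 without WT stimulated 1). The one 5729 bp inside the gene rose by 0.47 ± 0.15 in KO cells (limma, adjusted p = 0.0332), though with 0.29 and an adjusted p of 0.0884 without KO stimulated 1 and also not without any 1 KO control. Its WT difference was 0.35 ± 0.15 (limma, adjusted p = 0.0892). Weaker intervals were deposited at this region in 1 of 3 KO control and 1 of 3 WT control libraries. The start site itself reached an equal list only in WT stimulated 3. Weaker intervals were deposited over it in 2 of 3 KO stimulated and 3 of 3 WT stimulated libraries, against 0 of 3 KO control and 0 of 3 WT control libraries. Their summits lay 11, 51 and 58 bp after the start in WT stimulated libraries, and 159 and 212 bp after it in KO stimulated libraries. A region at -44780 bp from the start, also nearer to Spef2, was in no equal stimulated list and in 1 KO control and 2 WT control lists, and passed in neither genotype.

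Il4ra, the IL-4 receptor alpha chain, gained upstream and at its far end. A region 12123 bp before the start (chromosome 7, 125538952 to 125540148) stood at 43.3, 37.2 and 28.8% in KO stimulated and 22.9, 26.6 and 23.4% in WT stimulated libraries. Of the 6 equal control lists only KO control 3 held it, at 71.3%. It rose by 1.31 ± 0.17 in KO cells (limma, adjusted p = 0.000129) and 2.05 ± 0.17 in WT cells (limma, adjusted p = 4.1e-06). Its neighbours, 10971 and 8311 bp before the start, were in no equal control list. The first stood at 45.2, 49.6 and 47.8% in WT stimulated libraries, was missing in KO stimulated 1 and stood at 76.2 and 55.1% in the other KO stimulated libraries. It rose by 1.07 ± 0.16 in WT cells (limma, adjusted p = 0.000222), had 0.42 ± 0.16 in KO cells (limma, adjusted p = 0.0649) and had a KO minus WT difference in stimulated cells of -0.66 ± 0.16 (limma, adjusted p = 0.0303). The second was in 3 of 3 WT and 1 of 3 KO stimulated lists, rose by 0.61 ± 0.12 in WT cells (limma, adjusted p = 0.00136), had 0.17 ± 0.12 in KO cells (limma, adjusted p = 0.303) and had a KO minus WT difference in stimulated cells of -0.44 ± 0.12 (limma, adjusted p = 0.0436). The KO minus WT call of the first was lost without any of 9 of the 12 libraries in turn, and that of the second without any of 10. The adjusted p of the first was 0.102 without WT stimulated 1, and that of the second was 0.0935 without KO stimulated 1, the shortest list, and 0.146 without WT stimulated 1.

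The region at the far end of Il4ra (125577647 to 125586554) was the gene's strongest. It stood at 8.62, 6.72 and 5.90% in KO stimulated and 5.47, 6.62 and 5.98% in WT stimulated libraries, against 10.9, 14.0 and 11.6% in KO control and 10.1, 14.9 and 14.3% in WT control libraries. All stimulated libraries lay above all controls, with a difference of 0.79 ± 0.21 in KO cells (limma, adjusted p = 0.0126; 0.0573 without KO control 2) and 1.11 ± 0.21 in WT cells (limma, adjusted p = 0.0013). It was wider by 1.16 ± 0.27 in WT cells (limma, adjusted p = 0.0217; up to 0.0876, without WT stimulated 3, when 1 library was left out) and had 0.53 ± 0.27 in KO cells (limma, adjusted p = 0.271). A region 13054 bp into the gene rose by 0.98 ± 0.15 in KO and 0.63 ± 0.15 in WT cells (limma, adjusted p = 0.000409 in KO and 0.00539 in WT), and one 8158 bp beyond the end rose by 0.50 ± 0.15 in WT cells (limma, adjusted p = 0.0219; 0.0884 without WT stimulated 3), with 0.18 ± 0.15 in KO cells (limma, adjusted p = 0.406). The start site passed in neither genotype, with 0.14 ± 0.18 in KO cells (limma, adjusted p = 0.593) and 0.37 ± 0.18 in WT cells (limma, adjusted p = 0.126). A region 39752 bp before the start, nearer to Nsmce1, fell by 1.00 ± 0.16 in KO and fell by 0.94 ± 0.16 in WT cells (limma, adjusted p = 0.000619 in KO and 0.000672 in WT) and its width fell by 0.71 ± 0.17 in KO cells (limma, adjusted p = 0.0254; 0.0986 without KO control 3).

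Il21r, the IL-21 receptor and neighbour of Il4ra, had more lower than higher regions. The start-site region (chromosome 7, 125602721 to 125604331) stood at 80.0, 44.8 and 48.4% in KO stimulated and 39.6, 34.8 and 29.8% in WT stimulated libraries, against 27.9, 32.9 and 33.2% in KO control and 30.03, 25.6 and 28.8% in WT control libraries. All KO stimulated libraries were lower than all others, and the WT groups overlapped in rank, with WT stimulated 3 above WT control 1. With stimulation it fell by 0.84 ± 0.20 in KO cells (limma, adjusted p = 0.00824) and had -0.30 ± 0.20 in WT cells (limma, adjusted p = 0.287). Inside the gene, 3157 bp after the start, a region fell by 0.78 ± 0.19 in KO and fell by 0.57 ± 0.19 in WT cells (limma, adjusted p = 0.0085 in KO and 0.0352 in WT; up to 0.128 in WT, without WT stimulated 2). A region 443 bp beyond the gene's end fell by 0.73 ± 0.16 in KO and fell by 0.88 ± 0.16 in WT cells (limma, adjusted p = 0.00406 in KO and 0.000922 in WT). Both calls were lost with lists of 17555 intervals and with normal scores. Over the alternatives the difference was as small as -0.0089 in KO and -0.186 in WT cells.

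A region 8801 bp before the Il21r start (125592618 to 125594628) separated the stimulated genotypes. It stood at 63.7, 37.2 and 33.2% in KO stimulated and 25.2, 18.6 and 19.2% in WT stimulated libraries, against 36.6, 45.8 and 39.5% in KO control and 34.7, 34.6 and 31.2% in WT control libraries. Every WT stimulated library was above every KO stimulated library. The KO minus WT difference in stimulated cells was -1.04 ± 0.22 (limma, adjusted p = 0.0166; up to 0.0678, without WT stimulated 2, when 1 library was left out). Its stimulated minus control difference was -0.08 ± 0.22 in KO cells (limma, adjusted p = 0.832) and 0.69 ± 0.22 in WT cells (limma, adjusted p = 0.0289; up to 0.0997 without WT stimulated 2), and the difference between these was -0.77 ± 0.31 (limma, adjusted p = 0.321).

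**Figure D5:**
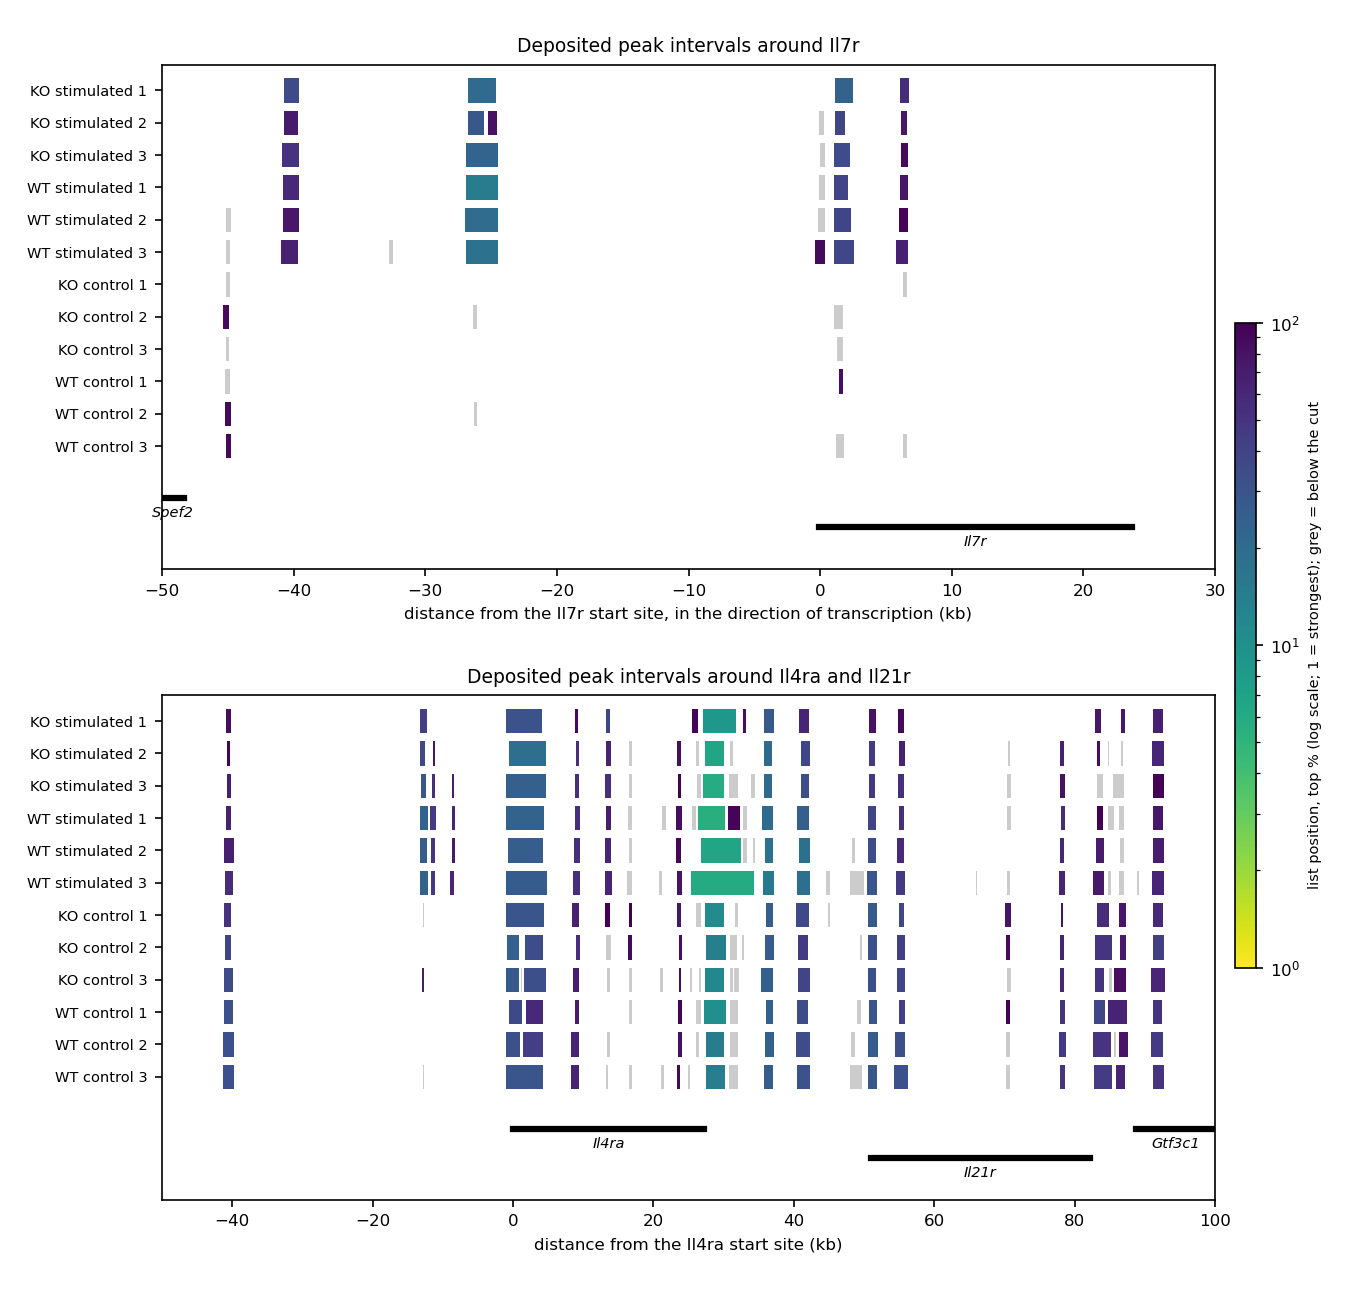
Bars are deposited intervals of 12 libraries around Il7r (top, distance from its start site in the direction of transcription) and around Il4ra and Il21r (bottom, distance from the Il4ra start site), in kb, with colour for the position in the list and grey for intervals below the strongest 35110. The Il7r bars before and just inside the gene and the Il4ra bars before the gene are in the stimulated rows and grey or missing in nearly all control rows.

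Presence in the lists was counted as well. Of the 60 regions, 7 held an interval in 3 of 3 KO stimulated and 0 of 3 KO control equal lists, where 5.19% of all tested regions did, and 11 in 3 of 3 WT stimulated and 0 of 3 WT control lists, where 9.42% of all did. The 7 were 4 regions of Il7r, 2 of Il2ra and 1 of Il15ra. The 11 were 3 of Il7r, 2 of Il2ra, 4 of Il4ra and 1 each of Il15ra and Il2rb. The opposite pattern was seen at 0 of the 60 in KO cells, where 4.65% of all regions had it, and at 0 in WT cells, where 6.42% of all had it. Presence has no test, since the smallest p that 3 libraries against 3 allow in an exact permutation test is 0.1. In width, 31 regions held intervals in all 12 lists. Of these 4 were wider in KO stimulated than in KO control libraries and 1 was narrower (limma), where 4.07% and 2.35% of all 21089 such regions were, and with the replicate block 3 were narrower. In WT cells 5 were wider and 0 narrower, where 4.8% and 1.97% of all were.

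Few of these regions passed the test between the genotypes. Between KO and WT control cells 0 of 60 regions were higher and 0 lower by limma, where 0.87% of all tested regions were higher and 1.91% lower. Of the 60, 5 (8.33%) had an unadjusted p under 0.05, where 13.1% of all regions did, and the smallest adjusted p was 0.0694, at a region inside Tmprss6 near Il2rb. With the replicate block the falling neighbour in Tmprss6 given above was lower in KO control cells (-0.995 ± 0.18, limma, adjusted p = 0.0225). Between KO and WT stimulated cells 1 region was higher, where 2.19% of all were, and 3 were lower, where 4.13% of all were. These were the region that runs from Il2ra's far end towards Il15ra, and the regions of Il4ra and Il21r given above. As summit windows, 4 of 77 passed, and the share of all windows was not worked out. They included a window inside Il2ra (11657382 to 11658081) with 0.61 ± 0.11 (limma, adjusted p = 0.00864). It was low in the lists, with a mean of 0.63 in KO and 0.02 in WT stimulated libraries. Another lay inside Il2rb (78494940 to 78495607) with -1.46 ± 0.37 (limma, adjusted p = 0.0411). Of the 60, 19 (31.7%) had an unadjusted p under 0.05, where 20.5% of all regions did, and the median KO minus WT difference in stimulated cells was -0.09 over the 60 and 0 over all tested regions. The response to stimulation differed between genotypes at 0 of 60 regions by limma, where 0.781% of all had a higher and 0.712% a lower difference. Of the 60, 9 (15%) had an unadjusted p under 0.05, where 12.9% of all did, and the smallest adjusted p was 0.184. The exact permutation test over both treatments gave 0 genotype calls of 60, with 12 at an unadjusted p under 0.05, and none of the 45082 regions passed it. It averages the genotype difference over control and stimulated cells, so it cannot decide a difference in stimulated cells alone. Its smallest p was 0.005, so a region could pass the adjustment only if many others also reached low p-values. An adjusted p above 0.05 does not show that the genotypes were alike.

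Near 19 genes of the ligands, other family receptors, kinases, STAT factors and feedback inhibitors around these receptors lay 160 tested regions. With stimulation 25 (15.6%) were higher and 29 (18.1%) lower in KO cells, where 14.6% and 16.6% of all tested regions were, so these shares were near those of all regions. In WT cells 38 (23.8%) were higher and 39 (24.4%) lower, where 18% and 18.9% of all were. In KO cells 4 of the 19 genes had higher regions only, 1 had lower only, 11 had both and 3 had neither. In WT cells 3 had higher only, 2 lower only, 13 both and 1, Stat5a, neither. Single regions are given for 4 of these genes, each the one with the largest difference in WT cells. Socs3, a feedback inhibitor of STAT signalling, had 13 regions, with 4 higher and 1 lower in KO and 6 higher and 4 lower in WT cells. One 8547 bp from the gene averaged 1.94 ± 0.17 (SD, n = 3) on the log2(N/rank) scale in KO stimulated and 2.16 ± 0.11 in WT stimulated, against 0.11 ± 0.19 in KO control and 0 in WT control libraries. The difference was 1.83 ± 0.13 (SE) in KO cells (limma, adjusted p = 5.07e-06) and 2.16 ± 0.13 in WT cells (limma, adjusted p = 1.09e-06). Jak1, the kinase that works with all these receptors, had 23 regions, with 5 higher and 6 lower in KO and 6 higher and 8 lower in WT cells, and one 11111 bp from it rose by 2.20 ± 0.14 in KO and 2.05 ± 0.14 in WT cells (limma, adjusted p = 3.24e-06 in KO and 1.71e-06 in WT). Socs1, another feedback inhibitor, had 11 regions, with 1 higher and 4 lower in KO and 2 higher and 2 lower in WT cells, and one 28247 bp from it rose by 1.72 ± 0.44 in KO and 2.78 ± 0.44 in WT cells (limma, adjusted p = 0.011 in KO and 0.000395 in WT). Il2, the gene of IL-2 itself, had 4 regions, with 1 higher and 1 lower in KO and 2 higher and 1 lower in WT cells, and one 26295 bp from it fell by 1.00 ± 0.10 in KO and fell by 1.00 ± 0.10 in WT cells (limma, adjusted p = 2.46e-05 in KO and 1.36e-05 in WT).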

How the data were processed

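Accessible chromatin was measured by ATAC-seq in mouse splenic NK cells, with 1 peak list per library in narrowPeak format. Per the submitters' processing notes, reads were handled with MACS2 2.1.1.20160309, deepTools 3.4.2, SAMtools 1.15.1, Bowtie2 2.3.4.1, cutadapt 4.1 and FastQC 0.11.9, and the build was mm10. Tool settings and any shift of reads for the transposase cut are not given in the sources used here. The authors deposited for each peak a fold (a ratio over the local background), −log10 p and q values, a score and a summit. All of these belong to the peak within its own library and were used only to rank within a list.

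Several summits in 1 interval were taken as 1 interval with the value of its strongest summit. Each list was cut to its 35110 strongest intervals by the deposited −log10 q value, and intervals sharing at least 1 bp were merged over the libraries on chromosomes 1 to 19, X and Y. The q at the cut differed between libraries, and a region outside an equal list can still hold a weaker deposited peak. Position, log2(N/rank), and width over the library's median width were fitted in limma 3.58.1 (R 4.3.3) over all tested regions with 4 group means and a mean-variance trend, with Benjamini-Hochberg adjustment at 0.05. The fit was also run on simulated data with normal noise around 1 mean per region. Such data do not reproduce groups set to 0 with no spread, so the run does not cover regions of that kind. An exact two-sided permutation test of both strata (400 rearrangements, smallest p 0.005) was the alternative, beside those in the closing section. Tables used Python 3.11.15 and pandas 2.3.3. Every column was matched to its sample, and 0 were left over.

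Gene bodies and promoters came from RefSeq tables of GRCm38.p6. The members, lists and tests were chosen with earlier results of these data known. Regions were named when they passed a rank or width test, were present in 3 of 3 libraries of one group and 0 of 3 of the other, or covered a start site. The Il2ra to Il15ra stretch, the Il2rb upper-end summits and further summit windows were singled out after their values were seen. Replicate numbers of the labels are not explained there. Deviations from the group means correlated by 0.000 to 0.482 (median 0.136) over 18 pairs of the same number and by -0.417 to 0.307 (median -0.062) over 36 pairs of different numbers. Between KO stimulated and KO control libraries each of the 3 same-number correlations was over 0.1 (0.131 to 0.167), so the block is given beside the KO stimulation results that it changes. In the other comparisons made, 2 of 3 were over 0.1 between WT stimulated and WT control (0.055 to 0.154) and between KO control and WT control libraries (0.074 to 0.272), and 0 of 3 between the stimulated genotypes, and the numbers were not taken as pairs there. Calls that the block changed in those comparisons are given beside them. Between WT control and KO stimulated libraries, not compared directly, 3 of 3 were over 0.1 (0.305 to 0.482).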

Additional observations from a re-analysis of the deposited data

Results flagged for a closer look

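Among the intervals too weak for the equal lists, 3 places held a deposited interval in 3 of 3 WT stimulated and 0 of 3 WT control libraries. They were not used in the comparisons above. Among all deposited intervals, weak or strong, 15 of the 105 merged stretches near the genes had this pattern, where 8.96% of all 81414 did. A share for weaker intervals alone was not worked out. One lay inside Il2ra (chromosome 2, 11675240 to 11676120), with intervals in 0 of 3 KO stimulated and 0 of 3 KO control libraries. One lay inside Il15ra (chromosome 2, 11707772 to 11709442), with intervals in 2 of 3 KO stimulated and 0 of 3 KO control libraries. One lay 42448 bp from Il7r (chromosome 15, 9462913 to 9463711), with intervals in 1 of 3 KO stimulated and 0 of 3 KO control libraries. WT stimulated lists were the longest of the 4 groups, with 55146 to 63128 intervals against 42520 to 53440 in WT control libraries, and the part of list length in these 3 places was not tested.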

How the results depend on the processing

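The regions called for stimulation in position were 23 in KO and 30 in WT cells. Of these 20 in KO and 22 in WT cells kept their call without any 1 library, and 9 in KO and 12 in WT cells under every other alternative run. None of the 4 KO minus WT calls in stimulated cells kept it under either. With lists of 17555 intervals, higher regions numbered 10 in KO and 13 in WT cells, lower ones 4 in KO cells, KO minus WT calls 1 in control and 2 in stimulated cells and genotype differences of the response 1, while 1 region was wider and 0 narrower in KO and 2 were wider in WT cells. With all deposited intervals, KO minus WT calls in control cells numbered 1 and differences of the response 1, and 2 regions were wider and 2 narrower in KO and 8 wider in WT cells. With summit windows 11 were lower in KO and 14 in WT cells. With calls that cover 50% of the region 10 were higher in KO and 3 lower in WT cells, and 1 differed in response. With normal scores 5 were lower in WT cells and 0 differed between stimulated genotypes. With a minimum of 6 libraries 1 KO minus WT call in stimulated cells was made, and with a minimum of 1 library 2. The exact permutation test, which averages over both strata, gave 11 lower and 0 KO minus WT calls, and was not run for the difference of the response. With a 20 kb flank 0 regions were narrower in KO cells, and with width in bp 2 were wider. The replicate block gave 1 KO minus WT call in control cells and 3 narrower regions in KO cells, and moved no other count by over 1.5 times.

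Leaving out 1 library in turn, lower regions in WT cells numbered 4 to 11, KO minus WT calls 0 to 3 in control and 0 to 10 in stimulated cells (8 without KO stimulated 1, 10 without KO stimulated 3 and 0 without WT stimulated 3), and differences of the response 0 to 4 (4 without KO stimulated 3). Wider regions in WT cells numbered 3 to 6, narrower ones 0 to 1 in WT and 0 to 2 in KO cells. Reversed were the Il2rb upper-end region, at -1.67 in KO and -2.48 in WT cells when its value came from the summit window beyond the end, and the neighbour in Tmprss6, at 2.16 in WT cells with calls that cover 50% of the region, where its KO difference was 0 and no longer called. For the Il2rb region the 2 windows given above show the reversal, and for the other changes the cause was not tested. Depth behind single peaks is unknown. The list of KO stimulated 1 was the shortest, and its effect on weak regions is covered only by the values without that library.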
